A study of Mus musculus with 2 samples.

Results

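The genes described here encode 4 steroid hormone receptors: Pgr, the progesterone receptor; Esr1 and Esr2, the estrogen receptors alpha and beta; and Nr3c1, the glucocorticoid receptor. They were taken by symbol from the gene table of a single-cell RNA-seq study of mouse cervix and are 4 of the 31053 genes it lists. Each was followed across the epithelial layers, the stroma, the endothelium and the immune cells. The study has 1 library per group, each made from the pooled cervices of 9 ovariectomized C57BL6/129 females that were operated on at 7 to 8 weeks of age and left for 2 weeks to recover. The control mice had no treatment over the 15 days of the experiment, and no vehicle group is given. The progesterone mice had estradiol injected under the skin in corn oil at 100 µg per day on 2 days and then a 25 mg pellet made for 21 days of release, estimated at 1 mg per day. Estradiol and progesterone therefore cannot be told apart in the treated library, and neither can the injections and pellet surgery. With 1 library per group no test between groups is possible, so every interval below is a 95% interval for counting error only and holds no spread between mice.

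Steroid receptors are transcription factors that their hormone switches on. The unliganded receptor is held by heat shock protein chaperones, the hormone releases it to bind DNA as a dimer, and coactivators or corepressors then set what its target genes do. In the female reproductive tract, estrogen acting through ESR1 is known to raise Pgr, to drive growth of the epithelium and, in the vagina and ectocervix, its squamous stratification. Progesterone acting through PGR is known to counter estrogen in the epithelium and to promote mucus-producing columnar cells there. Cortisol or corticosterone acts through NR3C1, which most nucleated cells carry.

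The control library holds 5368 cell barcodes and 21658684 UMIs (unique molecular identifiers, each counting 1 captured RNA molecule), and the progesterone library 10853 barcodes and 44811069 UMIs. After filters and removal of likely doublets, 4579 control and 8541 progesterone cells were analysed, with median depths of 3733 and 4151 UMIs; 19 barcode sequences occur in both libraries. Cell classes were rebuilt from clusters made without the receptor genes and without the hormone pathway genes used below, so the receptors did not define them, and they may differ from the names the study used. Basal squamous-like cells, named from a marker list that holds Krt5 and Krt14, numbered 1428 in control and 3469 with progesterone. Neither keratin was among the 10 leading genes of a basal cluster. Suprabasal squamous-like cells (markers Krt10, Krtdap) numbered 499 and 374, and luminal-like columnar cells (markers Krt8, Krt18) 227 and 1808. There were 79 and 133 fibroblast-like, 44 and 61 endothelium-like, 240 and 470 macrophage-like, 338 and 444 neutrophil-like and 37 and 137 erythrocyte-like cells, and 1687 and 1645 cells stayed unnamed. The fibroblast-like cells include smooth muscle marked by Acta2, and the endothelium-like cells include lymphatic cells marked by Ccl21a. The libraries differ in which clusters make up a class. The suprabasal class was mostly cluster 7 in control (407 cells, led by Krt16 and Krt6b) and cluster 0 with progesterone (371 cells). The luminal-like class was mostly cluster 14 in control (125 cells) and clusters 20 and 22 with progesterone (644 and 944 cells). Its control cells also carried the basal keratins Krt5 (2745 CPM) and Krt14 (2850 CPM), against 489 and 194 CPM with progesterone. Krt8 was 3079 and 901 CPM and Krt18 2901 and 2387 CPM. Ratios of the luminal-like class therefore compare cells with unlike keratins. The largest basal cluster was cluster 1 in control (506 cells) and cluster 12 with progesterone (1474 cells), followed by cluster 6 in both (301 and 1037 cells).

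In the mouse genome (GRCm38, GENCODE annotation) Pgr (ENSMUSG00000031870) lies on chromosome 9 from 8899833 to 8968611 on the plus strand, Esr1 (ENSMUSG00000019768) on chromosome 10 from 4611593 to 5005614, also plus, and Esr2 (ENSMUSG00000021055) on chromosome 12 from 76120419 to 76177259 on the minus strand. Within its bounds Esr2 overlaps the annotated gene Gm7862 on the same strand, so its few reads are uncertain. The stretch directly before the start of Pgr is shown because Pgr is the receptor the mice were given estradiol to raise. It is the RefSeq sequence at chr9:8899583-8899832 of GRCm38.p6, plus strand, and capitals mark its matches to a CCAAT box and a GC box.

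Pgr upstream region: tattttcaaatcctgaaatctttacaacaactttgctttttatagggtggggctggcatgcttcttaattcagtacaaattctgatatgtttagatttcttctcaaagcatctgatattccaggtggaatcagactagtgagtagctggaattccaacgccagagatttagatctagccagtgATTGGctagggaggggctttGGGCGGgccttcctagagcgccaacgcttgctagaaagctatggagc

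The GC box (GGGCGG, plus strand) begins 47 bases before the start, and 32.7% of the 32851 RefSeq promoter windows searched hold this motif on either strand. The CCAAT box match is on the minus strand, 67 bases before the start, and 33.8% of windows hold the letters CCAAT on either strand. Other motifs were searched on both strands without a match in this window. They were the full palindromic estrogen response element (in 0.0639% of windows), its half-site GGTCA (35.2%, which the full element contains), the half-site AGAACA shared by progesterone and glucocorticoid receptors (16.1%) and the AP-1 site TGANTCA (6.75%). A match or its absence describes these letters only.

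Pgr was highest in the columnar and suprabasal epithelium and was not found in neutrophil-like cells. Its level, as UMIs per 1000000 UMIs of the class in a library (CPM), was 46.4 in control and 94.3 with progesterone in luminal-like cells. In suprabasal cells it was 76.3 and 84.3 CPM, and in basal cells 30.4 and 44.1 CPM. The control order was thus suprabasal, luminal-like, basal, with no overlap of intervals between the first and the second (67.9–85.5 against 32.5–64.3) and overlap between the second and the third (26.2–35.1). With progesterone the luminal-like level (88.0–101) and the suprabasal level (74.1–95.5) overlapped, and both lay above the basal level (41.0–47.3). Fibroblast-like cells had 2 Pgr UMIs in control (21.8 CPM) and 35 with progesterone (77.0 CPM, 53.6–107), and endothelium-like cells had 1 and 3. Neutrophil-like cells had 0 UMIs in both libraries, where a floor of 3 UMIs equals 13.9 and 7.48 CPM. Such a floor stands beside a count of 0 and is not an interval bound.

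**Figure D1:**
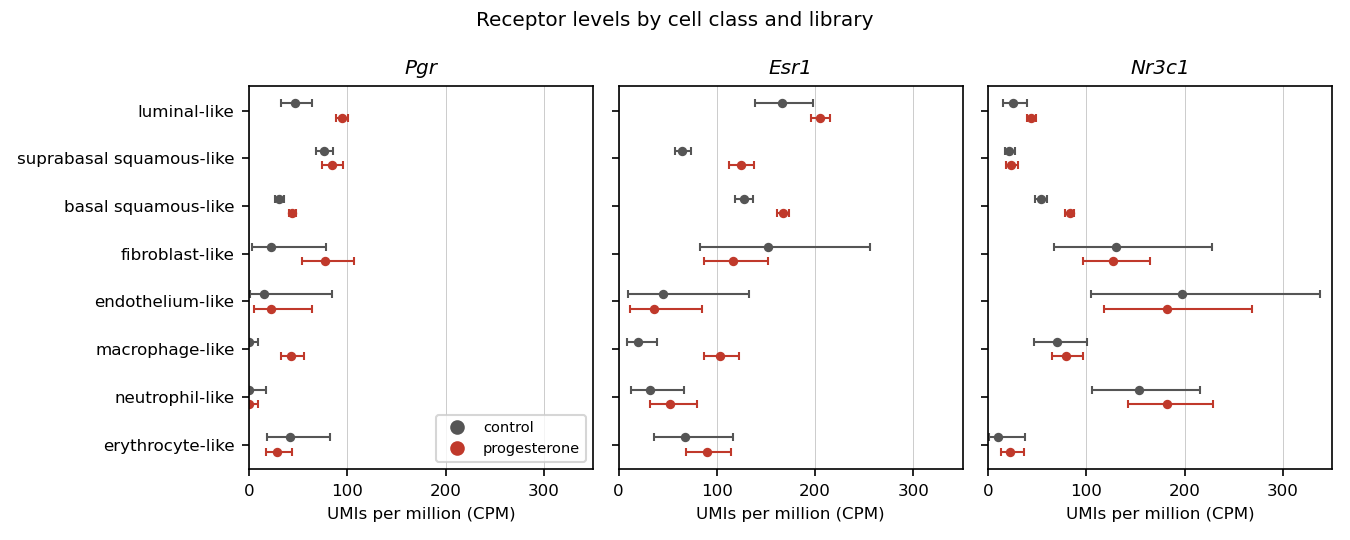
Levels of Pgr, Esr1 and Nr3c1 in CPM for each cell class, in the control library (grey) and the progesterone library (red), with bars for the 95% Poisson counting interval. Pgr and Esr1 are highest in epithelium, while Nr3c1 is highest in endothelium-like, neutrophil-like and fibroblast-like cells. For Pgr and Esr1 the erythrocyte-like row shows RNA that such cells are not known to make.

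Over all analysed cells Pgr went from 33.1 to 62.0 CPM (666 and 2361 UMIs). Within a class the progesterone library was 2.03 times higher in luminal-like cells (interval 1.46–2.92), 1.45 times in basal cells (1.23–1.71) and 1.10 times in suprabasal cells (0.929–1.31). The suprabasal interval includes 1. Cluster 19, with 0 Pgr UMIs in control, made up 87 of the 227 control luminal-like cells and 178 of the 1808 with progesterone. The luminal-like ratio without this cluster was not calculated. The luminal-like ratio was 4.18 under a stricter cell filter (500 genes or more, with mitochondrial UMIs limited to 10%) and at least 2.07 in every other alternative that gave a value, while the suprabasal ratio ran from 0.979 to 3.86 over its alternatives.

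The suprabasal range follows the clusters. In cluster 7, present almost only in control, Pgr stood at 86.0 CPM (76.3–96.5), the highest of any control cluster of at least 50 cells, and its 407 cells held 42.9% of all control Pgr UMIs. In cluster 0, which both libraries share, Pgr was 22.01 CPM in control (13 UMIs in 92 cells) and 85.1 CPM with progesterone (246 UMIs in 371 cells). That is a ratio of 3.86 (2.22–7.36), against 1.10 for the pooled class. Cluster 7 is led by the keratins Krt16 and Krt6b, known from stressed or activated keratinocytes, and cluster 0 by Krt10 and Krtdap, genes of early squamous differentiation. Krt6b is also among the leading genes of cluster 0 and Krtdap among those of cluster 7.

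Basal clusters were compared in the same manner. Pgr in cluster 2 was 13.7 CPM in control and 37.9 with progesterone (ratio 2.77, 1.54–5.49), in cluster 6 it was 20.1 and 42.5 (2.11, 1.09–4.68) and in cluster 12 it was 30.4 and 53.0 (1.74, 0.876–4.07). In cluster 5, whose leading genes are those of dividing cells such as Top2a and Mki67, it was 31.8 and 26.6 CPM (0.838, 0.550–1.27). Clusters 2, 6 and 12 thus had more Pgr with progesterone, the first 2 beyond counting error, and the dividing cluster had a ratio below 1 whose interval includes 1. Cluster 1, the largest basal cluster of the control library with 36.2 CPM there, has 21 cells in the other library. Control cells were shallower in 3 of these clusters, with median depths of 3289 and 5845 UMIs in cluster 2. The medians were 1223 and 3993 in cluster 6 and 2132 and 4395.5 in cluster 12, against 7133 and 5607 in cluster 5.

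Markers of columnar cells also differed between the libraries inside these squamous clusters. The summed level of the 8 columnar markers went from 1063 to 1781 CPM in cluster 0, from 892 to 1504 in cluster 2 and from 641 to 1695 in cluster 5, while it was 1169 and 1259 in cluster 6 and 1007 and 1036 in cluster 12. None of the 8 was at 0 in either library, and 3 were 1.5-fold higher and 1 lower in cluster 0. Krt18, a keratin of columnar cells, went from 120 to 634 CPM in cluster 0 and from 132 to 555 CPM in cluster 2. In cells with no UMI of Krt8 or Krt18, Pgr was 22.04 and 93.2 CPM in cluster 0. These were 7 and 22 UMIs in 60 control and 37 progesterone cells, under the 50 cells set for a ratio. In cluster 2 Pgr was 13.8 and 39.2 CPM (ratio 2.84, 1.07–8.003, in 180 and 64 cells). The ratio was 4.99 in cluster 6 (1.28–42.8, 2 and 35 UMIs). It was 1.39 in cluster 5 (0.623–2.81) and 2.71 in cluster 12 (0.897–13.4), where the intervals include 1. Median depth of these cells in control and with progesterone was 6544 and 1186 UMIs in cluster 5 and 1190 and 2842 in cluster 6. Over all basal cells without these keratins the Pgr ratio was 1.37 (1.08–1.74), and over those with a UMI of either it was 2.30 (1.70–3.19). With such a UMI it was 2.82 in cluster 2 (1.08–10.5), 1.28 in cluster 5 (0.656–2.65) and 1.39 in cluster 6 (0.659–3.52). The keratin split thus went in different directions between clusters.

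Among luminal-like cells of the progesterone library Pgr differed by cluster. It was 126 CPM in cluster 20 (115–138), 73.4 in cluster 22 (65.5–81.9) and 37.2 in the small cluster 25 (19.8–63.6), and the first 2 intervals do not overlap. Control cluster 14, the main luminal-like cluster without treatment, was at 65.2 CPM (45.4–90.7), which overlaps cluster 22 but lies below cluster 20. Cluster 19 is a shallow cluster shared by the libraries and led by Upk1a and Postn. It had Krt5 at 1881 CPM in control and 925 with progesterone, beside Krt18 at 1976 and 2798 CPM. Pgr had 0 UMIs in its 87 control cells and 11 in its 178 progesterone cells. Its progesterone level was 3.15 times a floor of 3 UMIs in the control cells, and the counting interval of the ratio starts at 2.15. Unnamed cluster 4, led by the mucous genes Agr2, Spdef and Muc5b and almost all from the progesterone library (22 and 754 cells), had 89.7 CPM there (80.9–99.2). It held 16.2% of that library's Pgr UMIs. Unnamed clusters 9 and 10, led by Sprr2 genes and Lcn2 and mostly control cells, were low at 16.3 and 9.41 CPM in control.

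**Figure D2:**
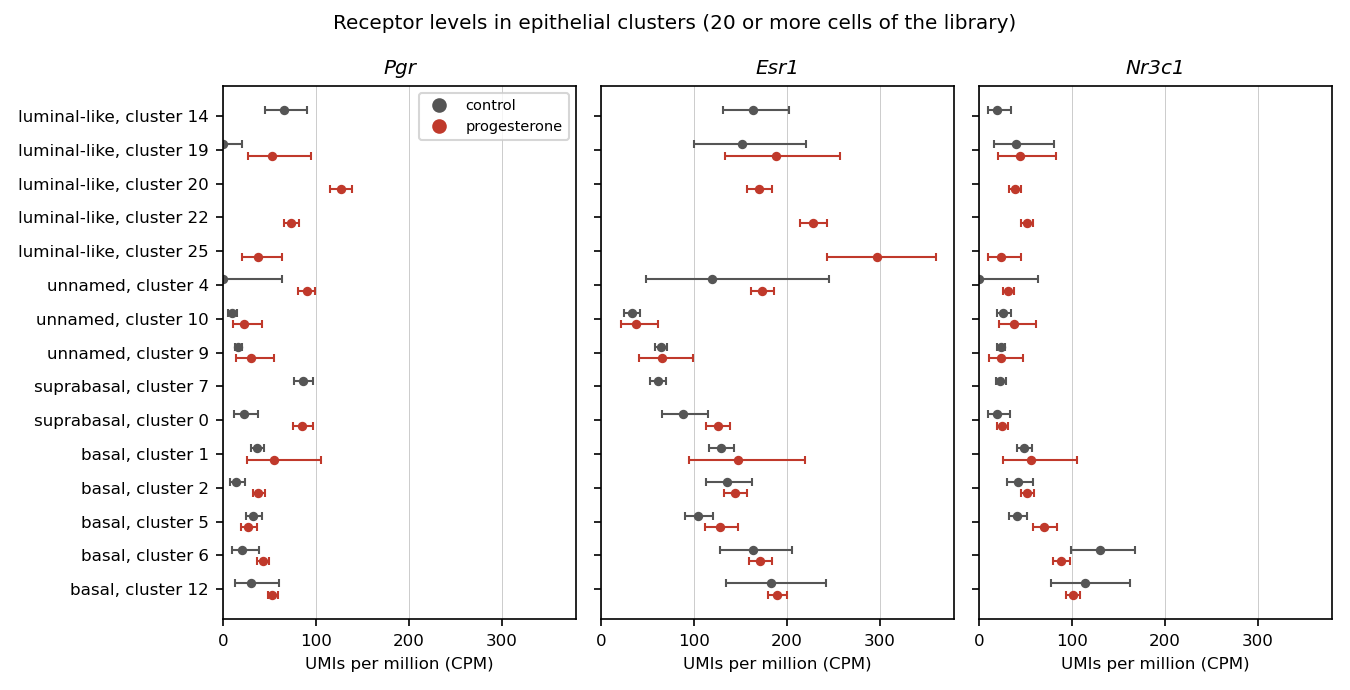
Levels of the 3 receptors in CPM in each epithelial cluster with at least 20 cells of the library, control in grey and progesterone in red, with 95% Poisson counting intervals. The Pgr intervals of the 2 libraries are apart within clusters 0 and 2 and overlap within cluster 6, whereas the Esr1 intervals of clusters 2, 6 and 12 overlap nearly in full.

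Esr1 was found in every epithelial class and, among pooled classes, was highest in luminal-like cells. There it was 166 CPM in control (139–198) and 205 with progesterone (196–215). Basal cells had 128 (119–137) and 167 CPM (161–174), and suprabasal cells had 64.8 (57.1–73.3) and 125 CPM (112–138). Luminal-like, basal and suprabasal levels did not overlap in either library. This order did not hold between all clusters. Basal cluster 12 was at 182 CPM in control and 190 with progesterone, and luminal-like cluster 19 at 152 and 188 CPM. Fibroblast-like cells were at 152 (83.3–256) and 117 CPM (87.3–152), within the epithelial range, on 14 and 53 UMIs. Endothelium-like cells had 3 and 5 Esr1 UMIs, or 45.6 and 36.4 CPM.

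Pooled over all cells, Esr1 was 85.6 CPM in control and 163 with progesterone. The ratio within classes was 1.92 in suprabasal cells (1.63–2.27), 1.31 in basal cells (1.21–1.42) and 1.23 in luminal-like cells (1.03–1.49). Within the squamous clusters that both libraries share it was smaller, while luminal-like cluster 19 gave 1.24 (0.739–2.10). In clusters 2, 6 and 12 the control levels were 136, 163 and 182 CPM and the progesterone levels 144, 171 and 190 CPM, giving ratios of 1.06, 1.05 and 1.04 whose intervals include 1. The dividing cluster 5 gave 1.23 (1.002–1.51, 104 and 128 CPM), with an interval just above 1. Weighted over the 4 shared basal clusters the ratio was 1.10, and in suprabasal cluster 0 it was 1.43 (1.06–1.95, 88.1 and 126 CPM). The pooled suprabasal ratio thus includes cluster 7, where control Esr1 was 60.7 CPM. The luminal-like ratio was 2.41 under the stricter cell filter.

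Pgr and Esr1 did not follow each other among luminal-like clusters. Cluster 20, with the highest Pgr, had 170 CPM of Esr1 (157–184), cluster 22 had 228 (214–243) and cluster 25 had 297 (243–360). Cluster 7 paired high Pgr with low Esr1 among control squamous clusters, and clusters 9 and 10 were low for both, with Esr1 at 64.1 and 32.7 CPM.

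**Figure D3:**
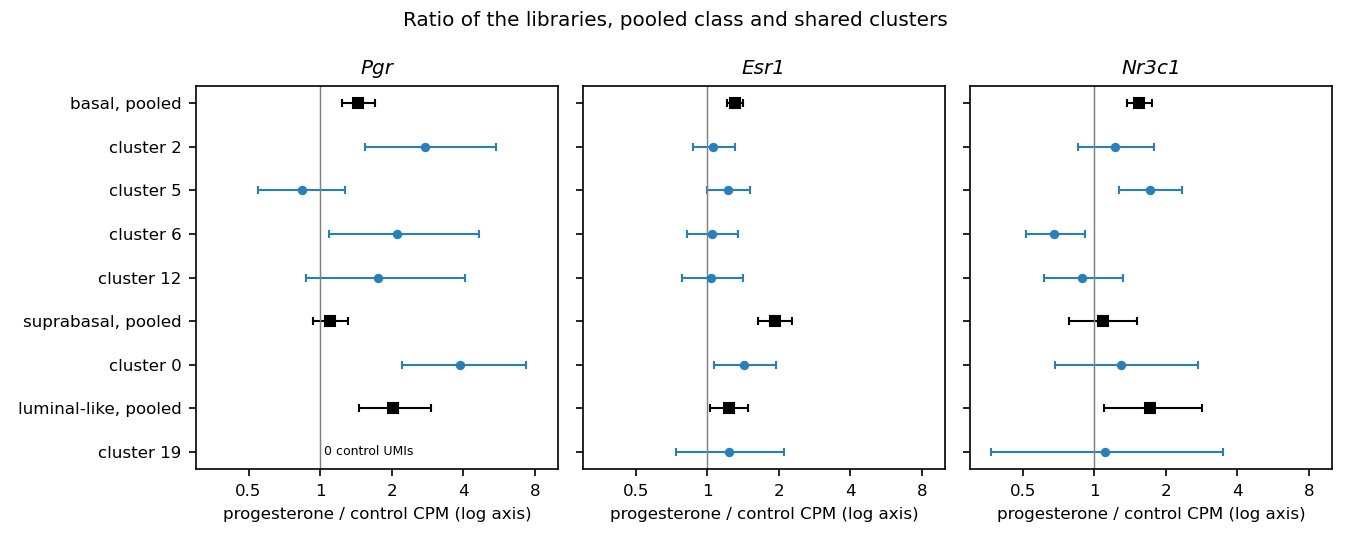
Progesterone over control ratio of each receptor on a log axis, for a whole class (black squares) and for its clusters that both libraries share (blue circles), with 95% counting intervals and a line at 1. Pgr is further above 1 in clusters 0, 2 and 6 than in their pooled classes, while Esr1 lies near 1 in clusters 2, 6 and 12.

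Esr2 was close to the limit of detection. It had 6 UMIs in the whole control library and 22 in the progesterone library, or 0.298 and 0.577 CPM. Of the 22, 16 were in luminal-like cells, 7 of them in cluster 20 and 9 in cluster 22, and 2 of the 6 control UMIs were in luminal-like cluster 14. Luminal-like levels were 2.58 CPM in control (0.312–9.32) and 1.85 with progesterone (1.06–3.003), a difference that this depth cannot resolve. With progesterone the luminal-like level lay above the basal one of 0.177 CPM (0.0365–0.517, 3 UMIs in 3469 cells). No Esr2 UMI was seen in fibroblast-like, endothelium-like or neutrophil-like cells of either library. In fibroblast-like cells the floor of 3 UMIs equals 32.7 and 6.60 CPM.

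Nr3c1 had its highest levels outside the epithelium. The gene (ENSMUSG00000024431) lies on chromosome 18 from 39410545 to 39519421 on the minus strand (GRCm38, GENCODE). Endothelium-like cells were at 197 CPM in control and 182 with progesterone, neutrophil-like cells at 153 and 182, fibroblast-like cells at 131 and 128 and macrophage-like cells at 69.9 and 79.7. Within each library the intervals of endothelium-like, neutrophil-like and fibroblast-like cells overlapped. In the epithelium the order was basal (53.9 and 83.1 CPM), luminal-like (25.8 and 44.2) and suprabasal (21.95 and 23.98), with basal cells above both others in each library. The suprabasal levels did not exceed those of erythrocyte-like cells, 10.5 CPM (1.27–37.8) and 22.8 CPM (13.0–36.9), by more than counting error.

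The Nr3c1 ratio was 1.54 in basal cells (1.37–1.74), 1.71 in luminal-like cells (1.09–2.83) and 1.09 in suprabasal cells (0.785–1.51). In cluster 19, the only luminal-like cluster that both libraries filled with 50 cells or more, it was 1.10 (0.365–3.48). Fibroblast-like, macrophage-like and neutrophil-like cells gave 0.976, 1.14 and 1.19, all with intervals that include 1, although neutrophil-like cells gave 2.75 where classes were set from each cell's own marker UMIs. In clusters 6 and 12, the largest basal clusters of the progesterone library, Nr3c1 was high in both libraries, at 130 and 88.2 CPM in cluster 6 and 114 and 101 CPM in cluster 12. In cluster 1, the largest basal cluster of the control library, it was 48.3 CPM. Weighted over shared clusters the basal ratio was 1.07, Leiden resolution 2 left it at 0.63 on the log2 scale (0.62 as reported), and the ratio turned to 0.846 where classes were set from each cell's own marker UMIs, a setting that left 76 progesterone basal cells. The cluster values themselves went both ways, with 0.679 in cluster 6 (0.514–0.912) and 1.71 in the dividing cluster 5 (1.26–2.34, 40.8 and 69.9 CPM).

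Stromal and immune cells also carried epithelial RNA, which bears on Pgr and Esr1 there. In macrophage-like cells Pgr had 0 UMIs in control and 54 with progesterone, or 42.6 CPM. That is 5.69 times the control floor of 3 UMIs (7.49 CPM), and the counting interval of the ratio starts at 4.47. Esr1 was 19.96 and 103 CPM, a ratio of 5.18 (2.55–12.2) that was 1.69 under the stricter cell filter. The basal keratins moved alongside in the same cells, with Krt5 at 417 and 1760 CPM and Krt14 at 846 and 3583 CPM. Among macrophage-like cells with no UMI of Krt5 or Krt14 (111 control and 149 progesterone cells), Pgr had 0 UMIs in both libraries, with upper interval bounds of 21.4 and 13.8 CPM. Esr1 had 0 and 4 UMIs there, and Nr3c1 kept 69.6 and 63.5 CPM. All 54 Pgr UMIs and 127 of the 131 Esr1 UMIs of the progesterone class were in the 321 cells that also held a keratin UMI, which were deeper (median 2548 against 1218 UMIs).

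The same division in fibroblast-like cells of the progesterone library left 6 Pgr UMIs in 64 cells (34.6 CPM, 12.7–75.3) without a keratin UMI and 29 in 69 cells (103 CPM, 69.0–148) with keratin UMIs. Esr1 was 69.2 CPM (35.7–121) without and 146 CPM (105–198) with keratin UMIs, and Nr3c1 173 CPM (117–247) and 99.5 CPM (66.1–144). In neutrophil-like cells without keratin UMIs Nr3c1 was 144 and 197 CPM, and Esr1 had 2 and 7 UMIs. Erythrocyte-like cells are not known to make Pgr or Esr1. With progesterone they had 28.4 CPM of Pgr (17.4–43.9) and 89.6 CPM of Esr1 (68.8–115), beside 1236 CPM of Krt5. In control they had 8 Pgr UMIs, or 41.9 CPM (18.1–82.5). The progesterone interval overlaps Pgr of basal cells and of fibroblast-like cells without keratin UMIs, and lies below that of luminal-like and suprabasal cells. The wider control interval overlaps Pgr of basal, luminal-like and suprabasal cells alike.

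**Figure D4:**
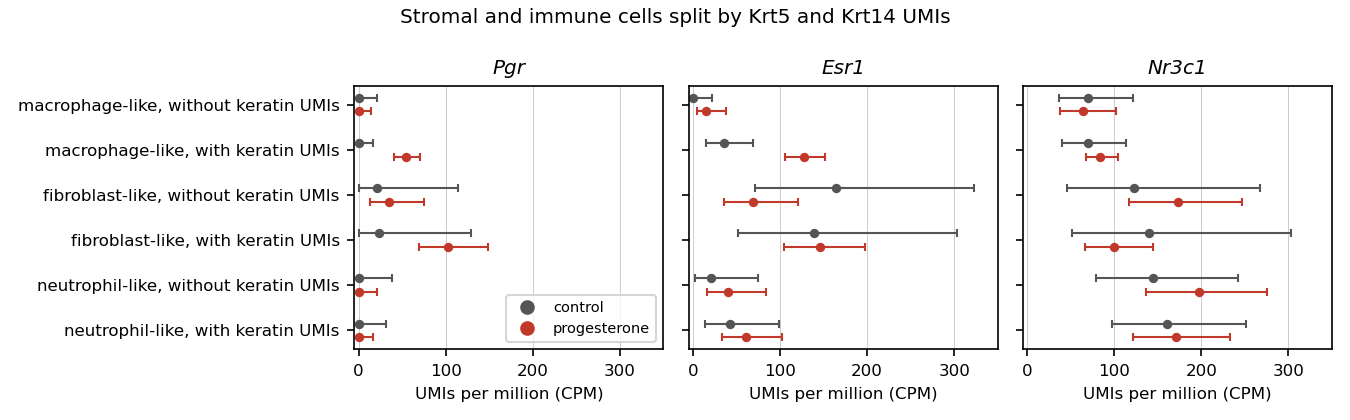
Levels of Pgr, Esr1 and Nr3c1 in CPM in macrophage-like, fibroblast-like and neutrophil-like cells without and with UMIs of the basal keratins Krt5 and Krt14, control in grey and progesterone in red, with 95% Poisson counting intervals. Macrophage-like cells without keratin UMIs have 0 Pgr UMIs in both libraries, while their Nr3c1 intervals without and with keratin UMIs overlap.

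The share of cells with a receptor UMI was compared after each cell was thinned to 2000 UMIs, leaving out shallower cells (1559 control and 1946 progesterone). Pgr was then seen in 16.8% of luminal-like cells with progesterone (14.9–18.8%) and 8.00% in control (4.20–13.6%), unthinned 29.4% and 11.5%. In suprabasal cells it was 15.9% and 11.0%, and in basal cells 7.97% (7.05–8.96%) and 5.37% (4.06–6.95%), in the same order of libraries. Esr1 was seen in 34.9% of luminal-like, 29.5% of basal and 21.9% of suprabasal progesterone cells, and in 27.3%, 21.97% and 11.5% of control cells. For Nr3c1 the shares were 16.1% of basal, 8.52% of luminal-like and 5.41% of suprabasal cells with progesterone, and 10.7%, 6% and 4.37% in control. Erythrocyte-like progesterone cells gave 6.19% for Pgr (2.53–12.4%), 15.9% for Esr1 (9.72–24.0%) and 3.54% for Nr3c1 (0.973–8.82%), at a median depth of 4806 UMIs against 4676 in luminal-like and 4536 in basal cells. The basal Pgr share, the suprabasal Esr1 share and the luminal-like and suprabasal Nr3c1 shares lie inside those intervals and are not distinguished from the erythrocyte-like cells. Those cells are not a pure background, because their leading genes include the epithelial genes Krt16, Sprr2d and Clca1. Neutrophil-like progesterone cells, which are shallower, had 0 Pgr UMIs, also in the 231 with keratin UMIs.

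For the shallow immune cells, thinning to 500 UMIs kept every analysed cell. Nr3c1 was then seen in 7.10% of control and 9.46% of progesterone neutrophil-like cells, above the 2.87% and 4.07% of basal cells. Pgr was seen in 0 of 338 and 0 of 444 neutrophil-like cells, where a floor of 3 cells equals 0.888% and 0.676%. At the same depth Pgr was seen in 2.31% of basal, 3.48% of suprabasal and 4.43% of luminal-like progesterone cells.

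Receptor UMIs met in the same cell about as often as their separate shares give. Among 1503 thinned luminal-like progesterone cells, 95 (6.32%) had both Pgr and Esr1, where 86.8 follow from the shares within clusters (ratio 1.10, 0.886–1.34). Of Pgr-positive cells there, 37.7% had an Esr1 UMI, and of Pgr-negative cells 34.4%. Basal progesterone cells gave 82 of 3188 with both, against 75.4 (1.09, 0.864–1.35), and 161 with Esr1 and Nr3c1, against 154 (1.04, 0.890–1.22). In control basal cells 17 of 1006 had Pgr and Esr1, against 12.1 (1.41, 0.822–2.26). The intervals of the 3 pairs included 1 in each library of the basal, suprabasal and luminal-like classes. At 2000 UMIs a cell without a UMI may still express the receptor, so these counts do not show which cells lack one.

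**Figure D5:**
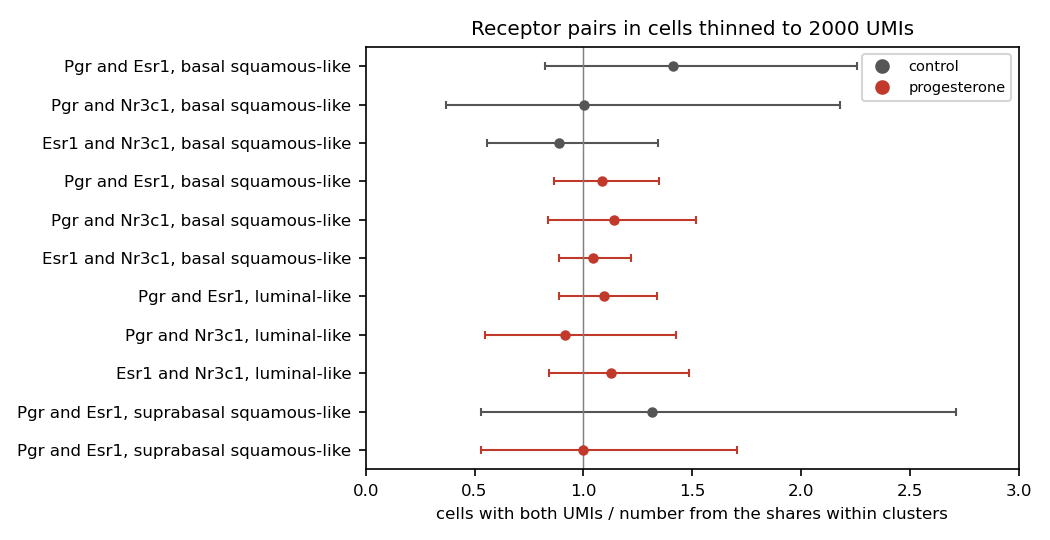
Number of cells with UMIs of both receptors divided by the number that follows from their shares within clusters, for pairs seen together in at least 5 cells thinned to 2000 UMIs, control in grey and progesterone in red, with 95% counting intervals. The intervals shown all include the line at 1.

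Dividing cells were compared with other basal cells, as cells with at least 2 UMIs of 10 cell cycle genes after thinning. In the progesterone library the 261 dividing basal cells had 31.3 CPM of Pgr (24.0–40.2), below the 45.9 CPM (42.5–49.5) of the 2927 others. Esr1 was 140 (124–158) against 170 CPM (164–177), and Nr3c1 67.8 (56.7–80.4) against 84.5 CPM (79.8–89.3). In control the 316 dividing and 690 other basal cells overlapped for Pgr (35.4 and 29.6 CPM), Esr1 (121 and 127) and Nr3c1 (43.2 and 49.7). Whether the difference between libraries exceeds the spread between mice was not tested.

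Counts of genes at least 1.5-fold apart put the receptors beside the rest. In basal cells 18.5% of the 12045 genes with at least 20 UMIs were 1.5-fold higher with progesterone and 15.8% lower; of Pgr, Esr1 and Nr3c1, which passed that filter while Esr2 did not, 1 (Nr3c1) was higher and 0 lower. In suprabasal cells 34.4% were higher and 12.4% lower, and 1 receptor (Esr1) was higher. In luminal-like cells 27.7% were higher and 14.8% lower, and 2 (Pgr and Nr3c1) were higher. With 3 genes these shares do not set the receptors apart from other genes. The median log2 ratio of the 3 was 0.53 in basal, 0.14 in suprabasal and 0.74 in luminal-like cells, beside 0.01, 0.29 and 0.07 for all genes that passed.

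These shares of all genes are the background for the counts of list genes. Of 7 other steroid and membrane progestin or estrogen receptors, 5 passed the filter in basal cells, 2 of them higher and 1 lower. In suprabasal cells 1 of 3 was higher and 1 lower, and in luminal-like cells 0 of 5 were higher and 1 lower. Paqr5, a membrane progestin receptor, was lower in basal (0.449), suprabasal (0.292) and luminal-like cells (0.424). Pgrmc2, a membrane progesterone-binding protein, had a basal ratio of 0.717 (0.643–0.80). The basal genes that were higher were Nr3c2, the mineralocorticoid receptor, with 3 and 39 UMIs, and Paqr7, a membrane progestin receptor (4.37 and 7.61 CPM, 1.74), which was named after its value was seen. Pgrmc1, a relative of Pgrmc2, was the higher gene in suprabasal cells (29.9 to 52.1 CPM, 1.74, 1.36–2.24).

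Of the chaperones that hold unliganded receptors, 0 of 8 were 1.5-fold higher in basal cells and 2 were lower, with a median log2 ratio of -0.45. Hsp90aa1 went from 957 to 449 CPM (0.468) and Stip1, a cochaperone that links HSP70 and HSP90, from 102 to 55.5 CPM (0.547). In luminal-like cells 3 of 8 were lower, with Hsp90aa1 at 0.601 and Hsp90ab1 at 0.618, and 1 was higher. In suprabasal cells 2 of 7 were lower, again Hsp90aa1 (0.659) and Stip1 (0.618).

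Of the 10 coregulators, 2 were higher in basal cells and 0 lower, 4 and 0 in luminal-like cells, and 5 and 0 of the 9 that passed in suprabasal cells. The basal count is near the 18.5% of all genes. Nrip1, a corepressor of nuclear receptors, was the clearest, from 165 to 429 CPM in basal (2.60, 2.43–2.78), 77.1 to 471 in suprabasal (6.11, 5.39–6.95) and 558 to 1102 CPM in luminal-like cells (1.97, 1.79–2.18). Ncor1, a corepressor, was at 1.04 in basal and 0.940 in luminal-like cells. Among pioneer and partner transcription factors, 4 of 7 were higher in basal cells, among them Tfap2c at 10.0 and 20.9 CPM (2.09). Foxa2, a factor of glandular epithelium, was at 1.78 and 7.85 CPM (11 and 133 UMIs). Of these, 5 and 128 were in cells with a Krt8 or Krt18 UMI, which were 566 of 1428 control and 2722 of 3469 progesterone basal cells. Suprabasal Foxa2 went from 2.04 to 41.1 CPM (8 and 120 UMIs), and 115 of the 120 were in the 337 of 374 cells that held a UMI of the columnar keratins Krt8 or Krt18. Those keratins went from 34.2 to 159 CPM (Krt8) and from 35.0 to 630 CPM (Krt18) in the same class, where 6 of the 8 columnar markers were 1.5-fold higher; their part in the Foxa2 level was not tested. In luminal-like cells Foxa2 was 92.8 and 107 CPM (1.16, 0.910–1.49).

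Steroid metabolism genes were few. Srd5a1, which reduces testosterone and progesterone, was lower in luminal-like cells, from 682 to 212 CPM (0.310, 0.282–0.342), and higher in basal cells, from 14.9 to 23.7 CPM (1.59, 1.26–2.01). Akr1c18, which inactivates progesterone, went from 45.1 to 13.8 CPM in luminal-like cells (0.305). In fibroblast-like cells Hsd11b2, which inactivates corticosterone, had 0 UMIs in control and 94 with progesterone, out of 91867 and 454840 UMIs of the class. Its UMIs were not split by the keratin UMIs that part of these cells carry.

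Estrogen response genes went both ways. In basal cells 2 of 9 were higher and 4 lower, in suprabasal cells 4 and 3 of 8 and in luminal-like cells 5 and 3 of 9. Sprr2f, a cornified envelope gene known to respond to estrogen in uterus, went from 279 to 17.0 CPM in basal and from 1065 to 26.4 CPM in luminal-like cells. Lcn2 was lower in both (0.264 and 0.0596). Greb1, a cofactor and target of ESR1, was higher in basal (22.3 to 37.9 CPM, 1.70) and suprabasal cells (13.8 to 40.4 CPM, 2.93), and C3, complement component 3, was higher in luminal-like cells (28.4 to 138 CPM, 4.88).

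Most of the 13 measured progesterone response genes had too few UMIs, with 4 passing the filter in basal and in luminal-like cells and 2 in suprabasal cells. Spdef, a driver of mucous differentiation, went from 183 to 336 CPM in luminal-like cells (1.84, 1.55–2.19) and from 2.81 to 24.0 CPM in suprabasal cells (8.54, 11 and 70 UMIs). All 70 suprabasal Spdef UMIs with progesterone were in cells that also held a Krt8 or Krt18 UMI. Such cells were 337 of the 374 in the class, so most UMIs of any gene would lie there. The part of these columnar keratins in the Spdef level was not tested. Ptch1, the Hedgehog receptor and pathway target, had a basal level of 13.4 CPM in control and 20.1 with progesterone (1.49, 1.17–1.92), and suprabasal levels of 7.66 and 23.6 CPM (3.09). Fst, which binds activin, went from 11.0 to 0.531 CPM in basal cells (68 and 9 UMIs), and Calb1 had 0 and 67 UMIs in luminal-like cells.

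Glucocorticoid response genes also went both ways. In basal cells 4 of 12 were higher and 2 lower, in suprabasal cells 5 and 2 of 9 and in luminal-like cells 6 and 2 of 11. Tsc22d3 (GILZ), a common target of NR3C1, went from 10.5 to 26.3 CPM in basal cells (2.50, 1.92–3.30). Sgk1, a kinase that acts on ion transport, was higher in basal, suprabasal and luminal-like cells (1.97, 5.20 and 2.03). Zbtb16 had 0 and 32 UMIs in basal cells. The metallothionein Mt1 was lower in basal (531 to 224 CPM) and suprabasal cells (809 to 211 CPM) but higher in luminal-like cells (65.8 to 155 CPM). Fkbp5, listed for chaperones, progesterone and glucocorticoid response alike, was at 4.53 and 6.78 CPM in basal cells (1.5, 0.979–2.35). In the same basal cells 9 of 10 proliferation genes were lower and 0 higher, with Birc5 at 147 and 40.2 CPM and Ccnb1 at 64.9 and 13.9 CPM.

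The genes whose levels were most like each receptor were ranked over 14 points, each a class in 1 library with at least 50 cells, by Pearson's r of log2(CPM + 10) among 10124 genes with at least 200 UMIs. For Pgr they were Ank3 (0.917), mt-Cytb (0.916), Pdcd4 (0.916), Eny2 (0.896) and Ybx3 (0.893). For Esr1 they were Meis1 (0.968), Emx2os (0.959), Patj (0.946), Gm45250 (0.943) and Meis2 (0.941). For Nr3c1 they were Ccni (0.945), Myl12a (0.929), Zfp638 (0.906), Fndc3b (0.896) and Kansl3 (0.894). Between receptors r was 0.748 for Pgr and Esr1, -0.562 for Pgr and Nr3c1 and -0.377 for Esr1 and Nr3c1. The points of 1 library share its depth and free RNA, and these values only describe the order of classes.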

How the data were processed

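The values deposited by the authors are raw UMI counts, 1 matrix of genes by barcodes for each of 2 10x 3' libraries of mouse cervix with 9 pooled mice each. Tissue was dissociated in cold protease and strained, per the labels' protocols. Cell Ranger 3.0.2 and mm10 are named in the submitters' processing notes. Other settings are not given in the sources used here.

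The cell filter asked for 200 genes or more and no more than 20% mitochondrial UMIs, and the cells with the highest Scrublet scores, 0.8% per 1000 cells, were left out as doublets. The libraries were clustered together with scanpy 1.11.5 (2000 variable genes, 30 principal components, 15 neighbours, Leiden resolution 1, seed 1) without mitochondrial genes and without the receptors and pathway genes (91 genes). Clusters were named from 114 markers of 19 cell types. The thresholds for naming were set after the clusters were seen: a mean marker score of at least 0.75, a lead of 0.5 and at least 3 detected markers, and for erythrocyte-like cells at least 50000 CPM of haemoglobin. Class sums of UMIs in a library were divided by all UMIs of the class (CPM). Levels have exact Poisson, shares exact Clopper-Pearson and ratios exact conditional binomial intervals at 95%, which cover counting error alone. No ratio was made for classes under 50 cells in a library. The interval calculation was tested on simulated data.

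The receptors and gene lists were chosen with earlier results of these data known. Genes named from a list were, within a class, those of at least 20 UMIs with the 2 highest and 2 lowest ratios by the interval bound nearest to 1. Basal Sgk1 and Paqr7 and luminal-like Foxa2 fall outside the rule and were added after their values were seen, for comparison. For each receptor with at least 50 UMIs the 5 most alike genes were named. Alternatives were the cell filter, doublet removal, resolution, separate clustering, scaling, averaging over cells, classes from marker UMIs, thinning depth and the count filter. Weighting over shared clusters, leaving out stromal and immune cells with Krt5 or Krt14 UMIs, leaving out squamous cells with Krt8 or Krt18 UMIs, and thinning to 500 UMIs were added after seeing the data. No sequence of Nr3c1 or of the proteins is shown. Values of 1 gene of the lists are not reported here.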

Additional observations from a re-analysis of the deposited data

Results flagged for a closer look

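Within basal squamous-like cells the Nr3c1 ratio lay on opposite sides of 1 in a pair of clusters. It was 0.679 in cluster 6, led by Apoe and Jag2 (58 control and 378 progesterone UMIs), and 1.71 in cluster 5, the dividing cells (72 and 113 UMIs). Neither counting interval includes 1. Median depth in control and with progesterone was 1223 and 3993 UMIs in cluster 6, and 7133 and 5607 in cluster 5. With 1 library per group the difference between the clusters was not tested.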

How the results depend on the processing

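The values here are log2 ratios of progesterone over control. Classes set from each cell's own marker UMIs, which left 2392 control and 5312 progesterone cells in no class, gave 0.30 for Pgr, 0.057 for Esr1 and -0.24 for Nr3c1 in basal cells (0.53, 0.39 and 0.62 as reported), the last a change of sign. The same setting gave 0.97 for Pgr and 1.26 for Esr1 in suprabasal cells (0.14 and 0.94) and 1.72 and 0.86 in luminal-like cells (1.00 and 0.30). The stricter cell filter gave 2.06 for Pgr and 1.27 for Esr1 in luminal-like cells. The mean of each cell's CPM gave 0.85 for Pgr and 0.29 for Nr3c1 in basal cells. Scaling without mitochondrial, ribosomal protein and the 20 most abundant genes gave 0.60 for Esr1 and 0.83 for Nr3c1 there; it moved the median of all genes by 0.21 in basal, 0.20 in suprabasal, 0.17 in fibroblast-like and 0.28 in macrophage-like cells. Leiden resolution 2 gave 0.71 for Pgr in suprabasal cells. Weighting over shared clusters gave 0.14 for Esr1 and 0.10 for Nr3c1 in basal cells, and 1.95 for Pgr and 0.51 for Esr1 in suprabasal cells, where it uses cluster 0 alone. The cause of the other moves was not tested. Basal cells without Krt8 or Krt18 UMIs gave 0.65 for Esr1 and 0.82 for Nr3c1, and the suprabasal class has under 50 such progesterone cells. Pgr kept its sign in all 9 alternatives for basal cells and in all 7 that gave a value for luminal-like cells. No paired analysis was possible because each group has 1 library, and for the same reason no replicate could be left out. Depth limits Esr2 everywhere and all receptors in endothelium-like and control fibroblast-like cells.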
